A study of Homo sapiens with 25 samples.

Results

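Mitochondrial ribosomes make the few proteins that are encoded in mitochondrial DNA, all of them core parts of the respiratory chain and the ATP synthase. Their rRNAs come from the mitochondrial genome, but every protein of the particle is encoded in the nucleus, made in the cytosol and imported. The genes described here are those of that set whose names follow the pattern MRPS or MRPL, a number and at most 1 letter from A to C. The rule took 78 genes, 29 with small subunit names (MRPS) and 49 with large subunit names (MRPL), out of 59427 gene names in the table of expression values. It used names only and no measured value. A name does not always give the place of the protein: MRPS30 and MRPS18A sit in the large subunit, and MRPS36 is now known as a part of the 2-oxoglutarate dehydrogenase complex. Counts, medians and sums of small and large subunit genes below go by name, so they place MRPS30, MRPS18A and MRPS36 with the small subunit. All 78 members passed the filter on low values in both cell lines.

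The study compared antisense oligonucleotides (ASOs), short modified DNA-like strands that pair with an RNA and direct its cleavage, aimed at a pair of long noncoding RNAs that the labels call candidates 42 and 240. RNA sequencing was done on 25 libraries of A549, a lung adenocarcinoma line, and NCI-H460, a large cell lung carcinoma line, both established lines of non-small cell lung cancer. In each line, cells had received for 24 h, at 25 nM, either the neutral control ASO (Control A from Qiagen), ASO3 or ASO5 against candidate 42, or ASO1 or ASO3 against candidate 240. A549 has 3 libraries per group (numbered 3, 4 and 5) and NCI-H460 has 2 (numbered 1 and 2), and no label tells if they come from separate cultures, so a p-value here measures only the spread between these libraries.

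Values are TPM (transcript abundances per length) that the authors had rescaled between libraries. Log2 fold changes are on the log2(TPM + 0.5) scale. A gene was called changed where limma, a linear model fitted to all 5 groups of a line, gave a Benjamini-Hochberg adjusted p under 0.05 over all genes tested. Testing covered the genes averaging 1 TPM or more, which numbered 14740 in A549 and 13774 for NCI-H460. The number of reads behind a library is unknown. AC107959.3, taken as candidate 42, stood at 7.61 ± 2.76 TPM (SD, n = 3) in A549 controls, 0.65 ± 0.583 with ASO3 and 3.42 ± 1.21 with ASO5. In NCI-H460 it stood at 1.75 ± 0.825 (SD, n = 2) in controls, 0.529 ± 0.0176 with ASO3 and 1.67 ± 0.3 with ASO5, which overlaps the controls. AC015712.6, taken as candidate 240, stood at 0.347 ± 0.0757 TPM in A549 controls (n = 3), 0.185 ± 0.0609 with ASO1 and 0.0154 ± 0.0149 with ASO3. In NCI-H460 it was at 0.078 ± 0.0407 in controls (n = 2), 0.0865 ± 0.00699 with ASO1 and 0.0465 ± 0.0418 with ASO3, so the labels could not be checked there. All 5 epithelial markers were above 1 TPM in A549 and 3 of 5 in NCI-H460, and the 4 lung markers summed to 1.4 to 4.42 TPM in A549, where NAPSA was at 2.06 ± 0.646 TPM in controls (SD, n = 3), and to 0.229 to 1.12 TPM in NCI-H460. Of 4 leukocyte markers, CD14 was above 1 TPM in every library, at 15.1 ± 1.41 TPM in A549 controls (n = 3) and 16.8 ± 4.41 in NCI-H460 controls (n = 2), while PTPRC and CD3E were at 0 in the controls of both. Of 4 fibroblast markers 1 in A549 and 3 in NCI-H460 were above 1 TPM in every library, and of 4 endothelial markers 0 were.

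Control cells held the mitoribosomal protein mRNAs at moderate to high levels. In A549 the median control level over the 78 members was 80.2 TPM, from 13.3 to 395, and in NCI-H460 it was 72.9 TPM, from 10.8 to 405. Together they made up 0.756% to 0.968% of the signal of an A549 library and 0.791% to 0.958% of an NCI-H460 library. Over all libraries of a line, MRPL41, which encodes a large subunit protein without a bacterial relative, ranked first in both, at a mean of 411 TPM in A549 and 528 in NCI-H460. MRPS12, whose protein lines the decoding site (386 TPM), and MRPL12, whose protein forms the flexible stalk that recruits translation factors (348 TPM), followed in A549. In NCI-H460 MRPL12 (369 TPM) and MRPS34 (341 TPM) followed. The lowest were MRPL50 (13.4 TPM), MRPS31 (14.7) and MRPS10 (23.8) in A549, and MRPS17 (11), MRPL50 (13.2) and MRPS31 (16) in NCI-H460. The 29 MRPS genes had a median control level of 58.8 TPM in A549 and 64.8 in NCI-H460, and the 49 MRPL genes had 82.1 and 87.9.

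Since the members lie on many chromosomes and are transcribed one by one from the nuclear genome, the sequence before their start sites was examined for letters they share. RefSeq promoter sequences (GRCh38.p14) were matched for 69 of the 78. The letters CCGGAAG, read on either strand in the 250 bases before the start and known as the core of binding sites of ETS factors such as GABPA, were found in 23 of them (33.3%). The same letters stood in 11.8% of 15841 protein-coding promoters and 8.82% of all 27303. AAGATGGCG, the core of YY1 sites, looked for on either strand in the same 250 bases and the 50 after the start, was found in 13 (18.8%), against 2.74% of protein-coding promoters. The site of NRF1, a regulator of nuclear genes for mitochondria, read as GCGC, any base and TGCGC on either strand, stood in 8 (11.6%), against 7.65%. TATAAA on either strand stood in 2 (2.9%), against 9.24%, and CCAATNA on either strand in 10 (14.5%), against 15% of protein-coding promoters. These are matches of letters, not measured binding, and several may lie in the same promoter.

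The 150 bases before the RefSeq start are shown for 4 members whose changes are described below, each 5′ to 3′ on the strand of its gene, with CCGGAAG or its reverse complement CTTCCGG in capitals. MRPS34 (chr16:1773135-1773284, minus strand) and MRPL58 (chr17:75012520-75012669, plus strand) rose in NCI-H460 with candidate 42 ASO3. MRPS10 (chr6:42217862-42218011, minus strand) and MRPL39 (chr21:25607482-25607631, minus strand) fell there.
MRPS34: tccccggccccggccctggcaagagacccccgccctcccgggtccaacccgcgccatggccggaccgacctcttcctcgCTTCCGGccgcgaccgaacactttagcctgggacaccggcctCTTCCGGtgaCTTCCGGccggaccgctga
MRPL58: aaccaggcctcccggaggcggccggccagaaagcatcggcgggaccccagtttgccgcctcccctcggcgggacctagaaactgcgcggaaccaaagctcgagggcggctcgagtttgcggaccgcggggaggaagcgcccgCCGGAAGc
MRPS10: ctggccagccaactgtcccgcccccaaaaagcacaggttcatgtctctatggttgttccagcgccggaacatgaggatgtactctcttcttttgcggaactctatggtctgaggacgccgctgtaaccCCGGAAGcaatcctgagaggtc
MRPL39: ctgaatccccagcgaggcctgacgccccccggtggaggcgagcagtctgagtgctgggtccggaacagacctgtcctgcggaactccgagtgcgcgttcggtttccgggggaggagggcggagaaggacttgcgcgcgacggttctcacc
MRPS34 has 3 matches in this stretch, MRPL58 and MRPS10 have 1 each, and MRPL39 has none. Matches were thus present in promoters of genes that moved in opposite directions. Of the members with a promoter, 9 of 23 that rose in NCI-H460 with candidate 42 ASO3, 1 of 5 that fell and 13 of 41 without a call held CCGGAAG. For AAGATGGCG these were 4 of 23, 3 of 5 and 6 of 41, and for the NRF1 site 2, 0 and 6. MRPS10 holds 1 AAGATGGCG match outside the stretch shown. None of these differences between small groups was tested.

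The 78 genes moved little in most comparisons. Over the 8 comparisons of ASO with control, 44 members were called in none, 33 in 1 and 1, MRPL39, in 2. Nearly all of these calls came from NCI-H460 with candidate 42 ASO3, where 46% of all genes tested were called. In the other comparisons the share of all genes called ran from 0% to 13.8%. How often all genes were called over the 8 comparisons was not counted, so these counts do not set the members apart.

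**Figure D1:**
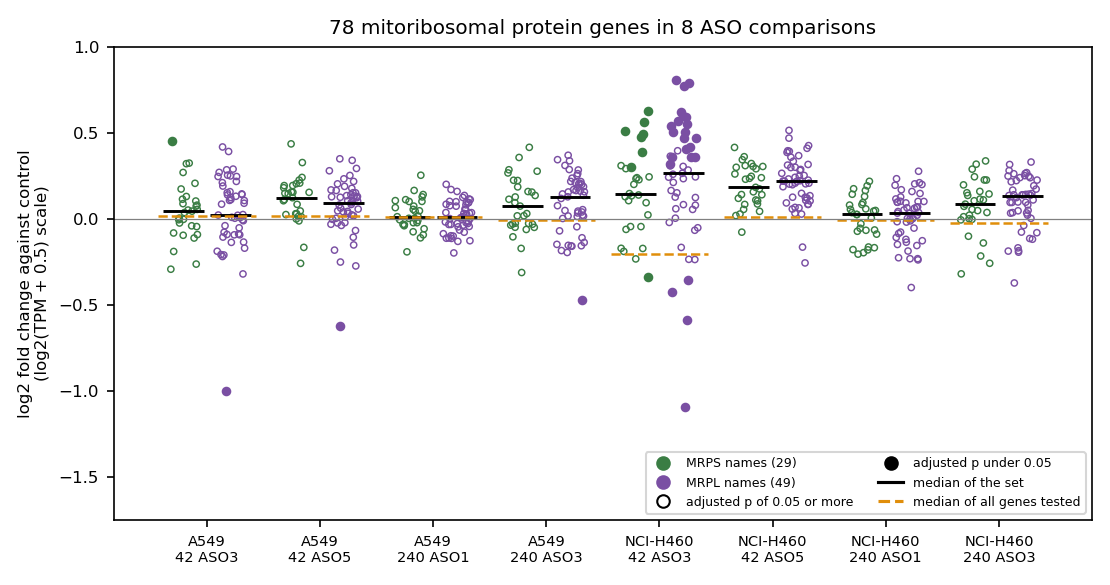
Log2 fold change (log2(TPM + 0.5) scale) of each of 78 mitoribosomal protein genes against control, in 8 comparisons, with MRPS names in green and MRPL names in purple. Filled points have an adjusted p under 0.05, black bars are the medians of the 2 sets and dashed lines the medians of all genes tested. NCI-H460 with candidate 42 ASO3, where 46% of all genes tested were called, holds 31 filled points, and each A549 comparison at most 2.

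MRPL39 was lower with candidate 42 ASO3 in both lines. It encodes a large subunit protein with no bacterial relative. Its gene lies on chromosome 21 from 25585656 to 25607517, on the minus strand (GENCODE release 29, hg38), and no annotated gene overlaps it. In A549 MRPL39 stood at 31.91, 27.16 and 26.84 TPM in the control libraries 3, 4 and 5 and at 14.65, 12.72 and 14.81 TPM with ASO3. All 3 ASO3 libraries lay below all 3 controls, and the log2 fold change was -1.0 (limma, SE 0.13, adjusted p = 0.000215). In NCI-H460 it stood at 36.9 and 35.98 TPM in controls and at 18.17 and 15.51 TPM with ASO3, a log2 fold change of -1.10 (limma, SE 0.10, adjusted p = 0.000203). Both ASO3 libraries lay below both controls there too. Leaving out any 1 library kept the call, with values from -1.04 to -0.92 in A549 and from -1.21 to -0.98 in NCI-H460.

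MRPL39 was not called lower with the other ASO against candidate 42. With ASO5 the libraries stood at 29.85, 33.65 and 33.76 TPM in A549 and at 43.11 and 40.93 TPM in NCI-H460, where both lay above the controls, though neither change was called (limma, adjusted p = 0.389 in NCI-H460). ASO5 minus ASO3 gave log2 differences of 1.18 in A549 (SE 0.13, adjusted p = 7.28e-05) and 1.30 in NCI-H460 (SE 0.10, adjusted p = 0.000158). With the candidate 240 ASOs MRPL39 stood between 28.01 and 38.31 TPM in A549 and between 29.9 and 35.61 TPM in NCI-H460, with no call. In the authors' deposited tables MRPL39 had a log2 fold change of -1.02 (q = 0.00361) in A549 and -1.04 (q = 0.012) in NCI-H460 with candidate 42 ASO3. No other gene within 100 kb of it passed the filter on low values in either line, so neighbours gave no values to set beside it.

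In A549, candidate 42 ASO3 left the rest of the set near the control level. The members' calls were 1 higher and 1 lower of 78, while 10.1% of all genes tested were called (3.43% higher, 6.63% lower). The median log2 fold change was 0.04 over the members and 0.02 over all genes tested, and 47 of the 78 lay above 0 against 52.5% of all genes. The member that rose was MRPS35, which encodes a small subunit protein specific to mitochondria. It stood at 87.46, 95.12 and 89.4 TPM in controls and at 113.6, 129.2 and 130.1 TPM with ASO3, with no overlap between the groups (limma, log2 fold change 0.45, SE 0.11, adjusted p = 0.015). Without ASO3 library 4 or 5 the call was lost (log2 fold change 0.42 each, adjusted p = 0.0625 and 0.0693). With the library number as a block MRPS35 kept its call (limma with block, adjusted p = 0.00841). Further members were called in that fit, where 21.1% of all genes were. ASO5 minus ASO3 gave -0.43 for MRPS35 (SE 0.11, adjusted p = 0.0199), a call lost in 4 of 6 fits that left out 1 library (adjusted p up to 0.0846). In the authors' deposited table for this comparison, 2 members were higher and 1 lower at a q-value under 0.05, where 11.3% of the genes listed passed.

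With candidate 42 ASO5, the only member called in A549 was MRPL37, while 3.82% of all genes tested were called (1.42% higher, 2.4% lower). MRPL37 encodes a large subunit protein without a bacterial relative, located on the plus strand of chromosome 1 from 54184041 to 54225464. Its libraries stood at 108.2, 88.72 and 90.33 TPM in controls and at 70.44, 57.93 and 57.47 TPM with ASO5. The 3 ASO5 libraries lay below all controls, and in both groups library 3 was the highest (limma, log2 fold change -0.62, SE 0.15, adjusted p = 0.0322). Leaving out 1 library at a time gave -0.72 to -0.53, and the call held only without ASO5 library 3 (adjusted p from 0.0371 to 0.133). With the library number as a block MRPL37 had an adjusted p of 0.000174 (limma with block). Further members were called in that fit, where 10.4% of all genes were. In NCI-H460 MRPL37 stood at 145.5 and 135.7 TPM in controls and at 122.7 and 112.8 TPM with ASO5, lower in both libraries but not called. ASO5 minus ASO3 was called in both lines, at -0.55 in A549 (SE 0.15, adjusted p = 0.029) and -0.41 in NCI-H460 (SE 0.11, adjusted p = 0.018). Leaving out 1 library lost these calls in 4 of 6 fits in A549 and 2 of 4 in NCI-H460 (adjusted p up to 0.107 and 0.122).

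MRPL37 overlaps SSBP3, CYB5RL and AL357673.1, genes on the opposite strand, and whether reads were counted by strand is not known here, so their reads may not be separable. SSBP3, at a control mean of 9.6 TPM, was also lower in A549 with ASO5 (limma, log2 fold change -0.60, SE 0.11, adjusted p = 0.00792), while CYB5RL gave -0.22 (adjusted p = 0.598). Any part of this overlap in the MRPL37 value was not tested. The median over the members was 0.11 against 0.02 over all genes tested, and 63 of 78 lay above 0 against 52.8% of all genes. By library the members' medians were 0.20, 0.06 and 0.02 in ASO5 libraries 3, 4 and 5. Protein-coding genes of at most 25366 bp, the upper quartile of the members' lengths, had a median of 0.04. In the authors' deposited table for this comparison 3 members were higher and 1 lower at a q-value under 0.05, where 5.56% of genes passed.

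**Figure D2:**
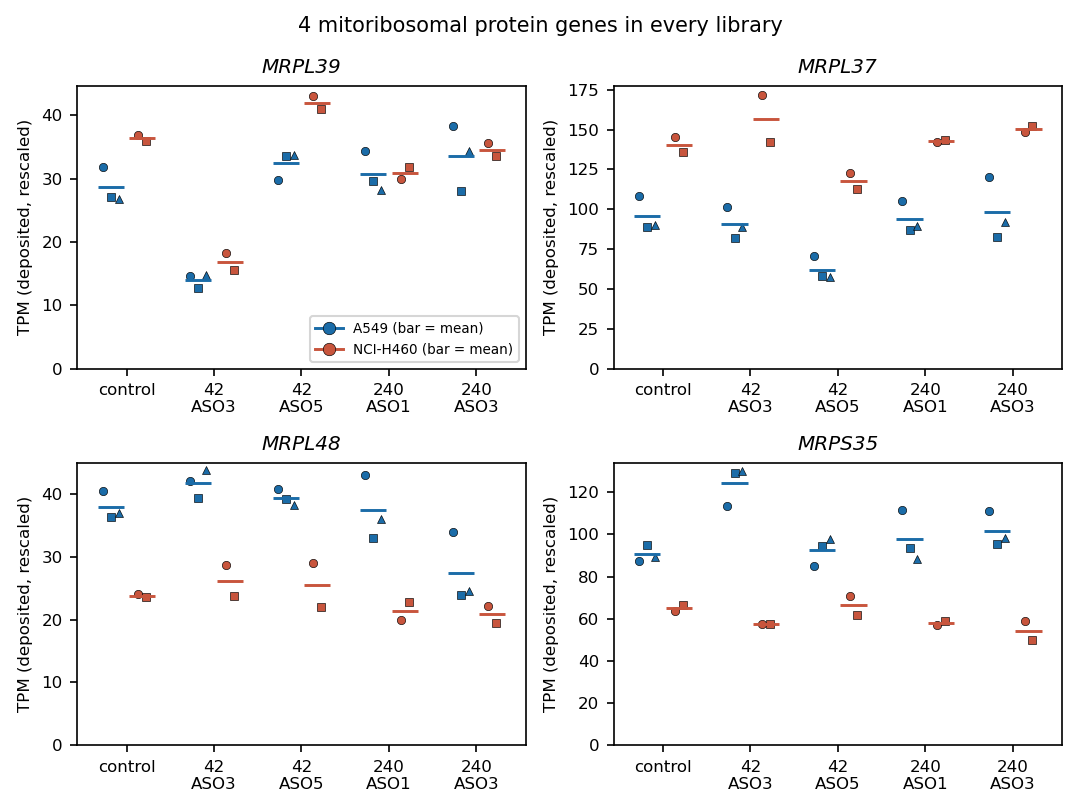
TPM (deposited, rescaled) of MRPL39, MRPL37, MRPL48 and MRPS35 in each of 25 libraries, A549 in blue and NCI-H460 in red, with the group mean as a bar and the control and 4 ASOs along the axis. Circles, squares and triangles are libraries 3, 4 and 5 of A549, and circles and squares libraries 1 and 2 of NCI-H460. MRPL39 is low with candidate 42 ASO3 in both lines, and MRPL37 with candidate 42 ASO5.

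Between the candidate 42 ASOs in A549, ASO5 minus ASO3 gave 4 members called, where 10.7% of all genes tested were (6.02% higher, 4.63% lower). MRPL39 and MRPS10 were higher with ASO5, and MRPL37 and MRPS35 lower. MRPS10, which encodes a small subunit protein with a bacterial relative, stood at 18.63, 19.46 and 21.86 TPM with ASO3 and at 23.92, 27.05 and 25.64 TPM with ASO5 (limma, log2 difference 0.35, SE 0.10, adjusted p = 0.0471), and this call was lost in all 6 fits that left out 1 library (adjusted p from 0.0539 to 0.166). Libraries with the same number deviated together in these groups, and with the number as a block 9 members were called, 6 higher and 3 lower, where 21.4% of all genes were.

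With candidate 240 ASO3 in A549, MRPL48 was lower and no other member was called, where 13.8% of all genes tested were called (6% higher, 7.82% lower). MRPL48 encodes a large subunit protein specific to mitochondria, located on the plus strand of chromosome 11 from 73787316 to 73865133. It stood at 40.55, 36.33 and 36.99 TPM in controls and at 34.02, 23.94 and 24.58 TPM with ASO3. ASO3 library 3 was closest to the controls, and no library overlapped them (limma, log2 fold change -0.47, SE 0.13, adjusted p = 0.0289). The call was lost without any control or without ASO3 library 4 or 5 (adjusted p from 0.0603 to 0.111), while without ASO3 library 3 it was -0.63 (adjusted p = 0.00217). ASO3 minus ASO1 gave -0.45 (SE 0.13, adjusted p = 0.0333), lost in 4 of 6 fits without 1 library (adjusted p up to 0.13). In NCI-H460 MRPL48 stood at 24.08 and 23.62 TPM in controls and at 22.16 and 19.52 TPM with ASO3, with no call.

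The A549 libraries numbered 3 stood apart for these genes. With candidate 240 ASO3 the members' median difference from the control mean was 0.44 in library 3, -0.09 in library 4 and -0.05 in library 5 (log2). The summed signal of these libraries over all genes was 1179224, 924350 and 947104 in the same order. The part of the summed signal in the medians was not tested. Control library 3 also held the highest summed member level of its group, at 9636.7 TPM against 7682.6 and 7177.5. Beside this, the median over the members with candidate 240 ASO3 was 0.105, and 0.13 over the large subunit genes and 0.08 over the small subunit genes. With the library number as a block, for which libraries of the same number deviated together, 9 members were called, 7 higher and 2 lower, where 25.1% of all genes were. Among them MRPL58, an enzyme of the large subunit that frees stalled peptides, rose by 0.37 (limma with block, SE 0.09, adjusted p = 0.0088), and MRPS36 by 0.42 (SE 0.13, adjusted p = 0.039). MRPS28, a small subunit gene, had -0.31 (SE 0.09, adjusted p = 0.0281), and MRPL48 had an adjusted p of 0.00342. The authors' deposited table held 0 members at a q-value under 0.05 in this comparison, where 11.6% of genes passed.

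Candidate 240 ASO1 gave 0 members called in A549, where limma called 0% of all genes tested. At an unadjusted p under 0.05 there were 267 genes, 0 of them members, and the authors' deposited table also held 0 genes at a q-value under 0.05. The log2 fold changes of the members ran from -0.20 to 0.25, with the largest in MRPS17 (0.25), MRPL19 (0.20) and MRPL10 (-0.20). ASO3 minus ASO1 gave 2 members lower, MRPL48 and MRPL19, where 16.7% of all genes were called (7.25% higher, 9.48% lower). MRPL19, a large subunit gene with a bacterial relative, stood at 94.73, 85.24 and 78.93 TPM with ASO1 and at 58.09, 70.72 and 73.49 TPM with ASO3, all lower (limma, log2 difference -0.36, SE 0.10, adjusted p = 0.031), a call lost in 3 of 6 fits without 1 library (adjusted p up to 0.116). With the library number as a block, 13 members were called, 10 higher and 3 lower, where 29.9% of all genes were.

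**Figure D3:**
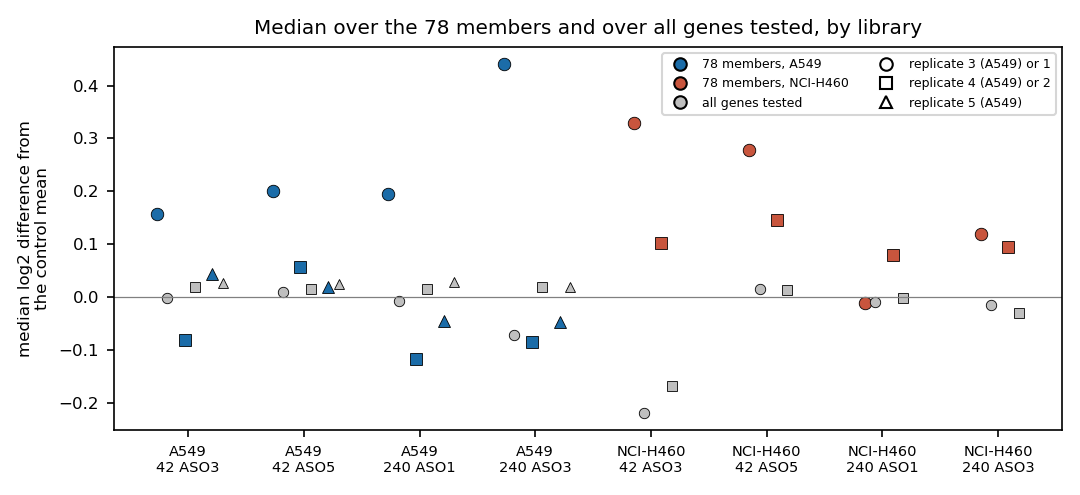
Median log2 difference from the control mean in each of 20 ASO libraries, over the 78 members (blue for A549, red for NCI-H460) and over all genes tested (grey), with symbols for the library number. The A549 circles, all from libraries numbered 3, are the highest of their groups, up to 0.44, and both NCI-H460 libraries with candidate 42 ASO3 or ASO5 lie above 0 for the members.

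In NCI-H460, candidate 42 ASO3 gave higher levels for 26 mitoribosomal protein genes, while more genes of all kinds fell than rose. Of the 78 members, 26 rose and 5 fell, where 46% of all genes tested were called, 13.2% higher and 32.8% lower. The median log2 fold change was 0.24 over the members and -0.20 over all genes tested, and 60 of 78 members lay above 0 against 37.9% of all genes. The genes with large subunit names had 19 risen and 4 fallen of 49, with a median of 0.27. Those with small subunit names had 7 risen, MRPS18A among them, and 1 fallen of 29, with a median of 0.15. Members listed as having bacterial relatives (15 risen and 2 fallen of 46, median 0.24) and the others (11 risen and 3 fallen of 32, median 0.23) are given side by side, and their difference was not tested. The list holds MRPS18C, while its related copies MRPS18A and MRPS18B were counted among the others. The median over the small subunit genes depended on scaling: it was 0.37 after median-of-ratios scaling and -0.01 with each library rescaled to the same sum, where the large subunit genes had 0.49 and 0.11.

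MRPL41 stood at 418.3 and 391.3 TPM in the NCI-H460 controls and at 865.1 and 579 TPM with ASO3 (limma, log2 fold change 0.81, SE 0.17, adjusted p = 0.00467). Both ASO3 libraries lay above both controls, and library 1 lay far above library 2. MRPL23, whose protein lines the exit of the peptide tunnel, stood at 223.8 and 210.6 TPM in controls and at 478.3 and 295.1 TPM with ASO3 (log2 fold change 0.79, SE 0.19, limma adjusted p = 0.00994). MRPL55 stood at 127.9 and 118.8 TPM in controls and at 264.1 and 167.9 TPM with ASO3 (0.77, SE 0.18, limma adjusted p = 0.0086). For all 3 genes no ASO3 library overlapped the controls, and library 1 was the higher.

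MRPS34, a small subunit gene in which inherited loss causes a mitochondrial disease, stood at 285.2 and 272.3 TPM in controls and at 503.8 and 367.4 TPM with ASO3 (log2 fold change 0.63, SE 0.15, limma adjusted p = 0.00887). MRPL2, whose protein lies by the catalytic centre, rose by 0.62 (SE 0.13, limma adjusted p = 0.0045), and MRPL51 by 0.60 (SE 0.12, adjusted p = 0.00502). Of the stalk genes, MRPL12 rose by 0.54 and MRPL11 by 0.47, while MRPL10 was not called. It had means of 52.4 TPM in controls and 55.6 TPM with ASO3 (n = 2 each). Of the genes with other known roles, MRPS12 rose by 0.48 and MRPL58 by 0.32. MRPL45, whose protein ties the ribosome to the inner membrane, stood at 0.00 (SE 0.12), MRPL44 at 0.08 and MRPS16 at 0.09, with no call. The 3 MRPS18 genes, related copies whose proteins sit in different places, gave 0.39 for MRPS18A (adjusted p = 0.0447), 0.15 for MRPS18B and 0.14 for MRPS18C, of which only the first was called. Without 1 of the libraries, MRPL41, MRPL2 and MRPL51 kept their calls in 4 of 4 fits, MRPL23, MRPL55 and MRPS34 in 3 of 4, and MRPL12, MRPL11, MRPS12, MRPL58 and MRPS18A in 1 of 4.

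Besides MRPL39, the members that fell were MRPL42, MRPL50, MRPL19 and MRPS10, which all lost their call under median-of-ratios scaling. MRPL42, a large subunit gene, stood at 74.43 and 73.42 TPM in controls and at 46.06 and 52.06 TPM with ASO3 (limma, log2 fold change -0.59, SE 0.14, adjusted p = 0.00925, and -0.36 with adjusted p = 0.058 after that scaling). MRPL50 gave -0.43 (SE 0.15, limma adjusted p = 0.0436), MRPL19 -0.36 (SE 0.13, adjusted p = 0.0469) and MRPS10 -0.34 (SE 0.11, adjusted p = 0.035). Leaving out 1 library lost the call of MRPL42 in 1 of 4 fits, of MRPL50 and MRPL19 in 3 of 4 and of MRPS10 in 2 of 4. Median-of-ratios scaling, which sets the typical gene to no change, moved the median of all genes from -0.20 to 0.01 and the median of the members from 0.24 to 0.46. It gave 47 members higher and 1, MRPL39, lower, where 46.6% of all genes were called. With each library rescaled to the same sum, 19 were higher and 9 lower. The share of all genes called under that rescaling is not given here, so these counts are not set against it.

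The size of the response rested on single libraries. All 26 risen members were higher in ASO3 library 1 than in library 2. How many of all risen genes were higher in library 1 was not counted, so this may not be particular to the members. The members' median difference from the control mean was 0.33 in the first and 0.10 in the second. Over all genes tested it was -0.22 and -0.17. Library 1 also had the largest summed signal over all genes in this line, at 1173905 against 995817 in library 2. The members made up 0.958% and 0.88% of these sums, and the part of the summed signal in the medians was not tested. The number of members called was 12 without ASO3 library 1, 45 without ASO3 library 2, 14 without control library 1 and 7 without control library 2. The share of all genes called moved with it, at 31%, 54.2%, 29.8% and 26.8% in the same order. The ratio of the summed small subunit level to the summed large subunit level was 0.454 and 0.478 with candidate 42 ASO3 and 0.487 to 0.496 in the other 8 NCI-H460 libraries. The authors' deposited table gave 48 members higher and 11 lower at a q-value under 0.05, where 49.3% of genes passed.

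Gene length moved with the log2 fold change in this comparison, and not in this comparison alone. Across the 78 members, Spearman's rho between the log2 fold change and the length of the annotated gene was -0.60, and across 11418 protein-coding genes tested it was -0.57; these genes come from the same 4 libraries and are not independent. The members are short genes, with a median of 11937 bp against 32580 bp. The risen members had a median length of 4924.5 bp and the fallen ones 21862 bp. Protein-coding genes of at most 25366 bp, the upper quartile of the members, had a median log2 fold change of 0.14, and longer ones -0.48. The members' median of 0.24 is to be read beside the former value, and the part of length in it was not tested. MRPL39 lay 1.10 below the control at a length of 21862 bp, and MRPL23 0.79 above it at 37245 bp. With candidate 240 ASO1 in NCI-H460, where limma called 0% of all genes tested, the members' rho with length was -0.56. Across protein-coding genes it was -0.34 there. All NCI-H460 comparisons share their control libraries. In A549 the members' rho was 0.08 with candidate 42 ASO3, -0.07 with candidate 42 ASO5, 0.43 with candidate 240 ASO1 and -0.09 with candidate 240 ASO3. Across 12063 protein-coding genes tested there it was -0.17, -0.13, 0.28 and -0.33 in the same order.

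**Figure D4:**
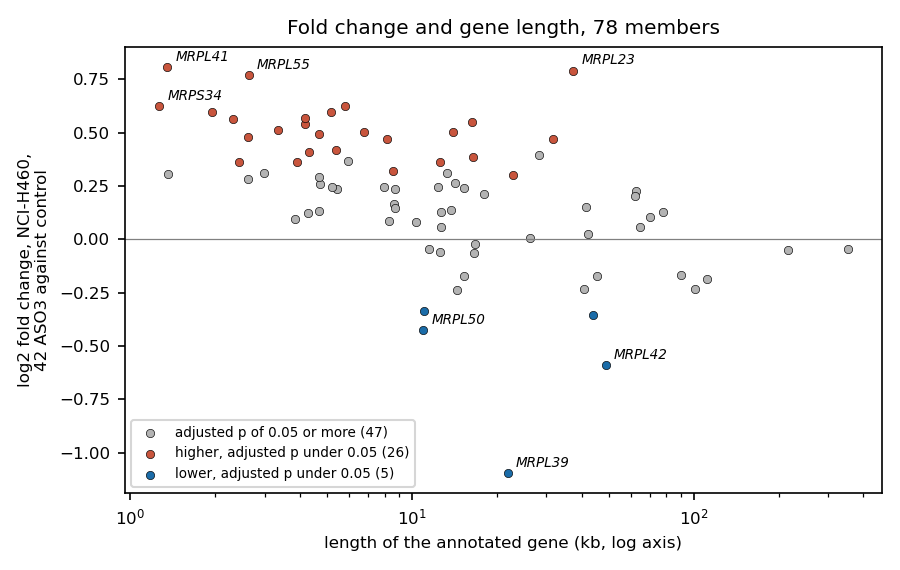
Log2 fold change with candidate 42 ASO3 in NCI-H460 (log2(TPM + 0.5) scale) against the length of the annotated gene in kb (log axis) for 78 members, with called members in red (26 higher) and blue (5 lower). Short genes such as MRPL41 and MRPS34 lie at the top left, and MRPL39 lies apart from genes of its length.

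With candidate 42 ASO5 in NCI-H460, 0 members were called, where limma called 0.508% of all genes tested (0.182% higher, 0.327% lower). The members lay mostly above the controls: 75 of 78 had a log2 fold change above 0 against 51.4% of all genes, with a median of 0.22 against 0.01. Gene length moved with the values here too, with a Spearman's rho of -0.45 across the members and -0.38 across protein-coding genes, and protein-coding genes of at most 25366 bp had a median of 0.10. With each library rescaled to the same sum, 67 members lay above 0 and their median was 0.155. At an unadjusted p under 0.05 there were 26 members and 2093 genes in all. The largest value was that of MRPL2, at 60.66 and 68.71 TPM in controls and 97.14 and 88.05 TPM with ASO5 (log2 fold change 0.52, SE 0.13, limma adjusted p = 0.127). MRPL36, of the large subunit, gave 0.47 (adjusted p = 0.171) and MRPL21 gave 0.43 (adjusted p = 0.162). The medians of the 2 libraries were 0.28 and 0.15, and the authors' deposited table held 0 genes at a q-value under 0.05. This comparison shares its controls with the other NCI-H460 comparisons, and the target RNA overlapped the controls in it. ASO5 minus ASO3 gave 7 members higher and 1, MRPL37, lower, where 33.3% of all genes were called (27.7% higher, 5.62% lower), and after median-of-ratios scaling 1 higher and 15 lower, where 29.8% of all genes were. The largest were MRPL39, MRPL42 (0.62, SE 0.14, adjusted p = 0.0104), MRPL50 and MRPL19 (0.48 each, adjusted p = 0.0354 and 0.0194), and without 1 library MRPL39 kept its call in 4 of 4 fits, MRPL42 in 2 and MRPL50 and MRPL19 in 1 each.

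The candidate 240 ASOs gave 0 calls among the members in NCI-H460. With ASO3, where limma called 5.66% of all genes tested (2.65% higher, 3.01% lower), 61 of 78 members lay above 0, with a median of 0.11 against -0.03 over all genes, and 5 members and 3286 genes in all had an unadjusted p under 0.05. Protein-coding genes of at most 25366 bp had a median of 0.109, close to that of the members (rho with length -0.51 across the members). With each library rescaled to the same sum, 41 members lay above 0 and their median was 0.011. The largest values were -0.37 in MRPL1 (adjusted p = 0.142), 0.34 in MRPS2 (adjusted p = 0.13) and 0.33 in MRPL41 (adjusted p = 0.26). The authors' deposited table gave 4 members higher and 0 lower there, where 6.91% of genes passed. With ASO1, where 0% of all genes tested were called, the members' median was 0.03 with 48 above 0, and it turned to -0.052 with 24 above 0 when each library was rescaled to the same sum. In this comparison 2 members and 493 genes in all had an unadjusted p under 0.05. ASO3 minus ASO1 also gave 0 members, where limma called 2.92% of all genes tested (1.04% higher, 1.88% lower), with 2 members and 2214 genes in all at an unadjusted p under 0.05.

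Whether the lines differed in their response was tested as an interaction over all 25 libraries. For candidate 42 ASO3 3 members were called, MRPS35, MRPL42 and MRPL19, where 19.7% of 14769 genes tested were (15.5% higher, 4.22% lower). All 3 had a higher log2 fold change in A549 than in NCI-H460. After median-of-ratios scaling none of these 3 was called, and MRPL52 (-0.84) and MRPS14 (-0.69) were. For candidate 42 ASO5 limma called 0 members, where 0.0339% of genes were called (0.0203% higher, 0.0135% lower), and 1 member and 968 genes had an unadjusted p under 0.05. For candidate 240 ASO1 it called 0 members and 0% of genes, with 2 members and 410 genes at an unadjusted p under 0.05. For candidate 240 ASO3 it called 0 members, where 1.21% of genes were called (0.393% higher, 0.819% lower), with 1 member and 1632 genes at an unadjusted p under 0.05.

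The lines differed in many of these genes. Under the control ASO, 20 members were higher and 15 lower in A549 than in NCI-H460, where limma called 54.9% of all genes tested, 36.4% higher and 18.4% lower. The median of all genes was 0.21 in favour of A549, so directions depend on scaling: after median-of-ratios scaling 8 members were higher and 23 lower, where 53.8% of all genes were called. MRPS12 stood at 460.8, 328.3 and 296.8 TPM in A549 controls and at 109.8 and 103.9 TPM in NCI-H460 controls (log2 difference 1.73, SE 0.24, adjusted p = 3.94e-06). MRPS12 overlaps SARS2 and AC011455.2 on the opposite strand. MRPS17, a small subunit gene, stood at 29.26, 29.24 and 22.1 TPM in A549 and 9.575 and 11.95 TPM in NCI-H460 (1.28, SE 0.17, limma adjusted p = 3.88e-06), with no overlap. Next were MRPS11 (0.86), MRPL51 (0.78), MRPS28 (0.77) and MRPL49 (0.71).

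Lower in A549 were MRPL9 (-0.95), MRPS2 (-0.86), MRPS21 (-0.82), MRPS30 (-0.78), MRPL30 (-0.73) and MRPL47 (-0.72). MRPL9 stood at 92.74, 76.52 and 68.59 TPM in A549 controls and at 149.6 and 155.5 TPM in NCI-H460 controls (SE 0.14, limma adjusted p = 1.39e-05). The summed level of the small subunit genes stood at 0.521 to 0.548 of that of the large subunit genes in the A549 libraries and at 0.454 to 0.496 in the NCI-H460 libraries.

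**Figure D5:**
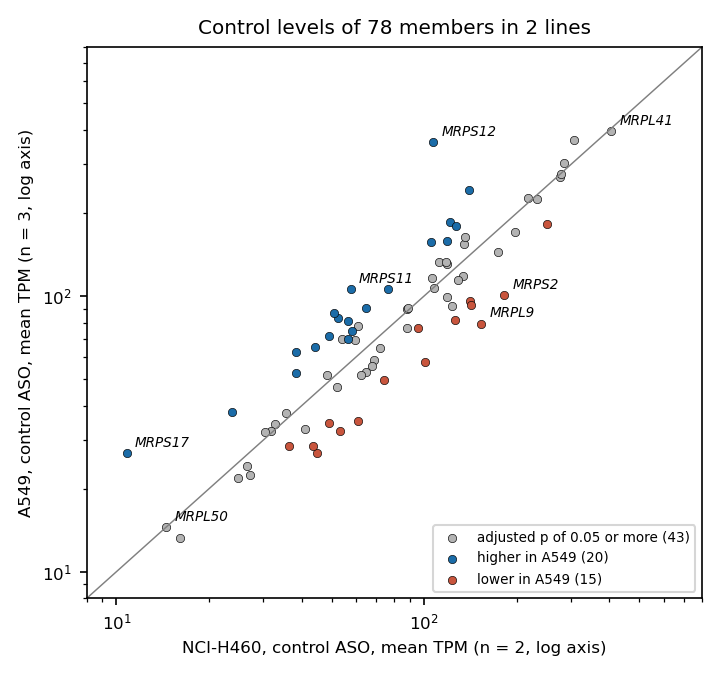
Mean TPM under the control ASO in A549 (n = 3) against NCI-H460 (n = 2) for 78 members, on log axes, with the line of equal levels. Blue points (20) were higher and red points (15) lower in A549 at an adjusted p under 0.05, and MRPS12 lies farthest above the line.

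The mitoribosome also holds proteins whose genes have no MRP name, and 1 of them moved more than any member. DAP3 encodes the GTP-binding protein of the small subunit that is also known from studies of cell death. In A549 it stood at 89.08, 87.82 and 76.52 TPM in controls and at 27.83, 19 and 22.64 TPM with candidate 240 ASO3 (limma, log2 fold change -1.86, SE 0.12, adjusted p = 5.81e-07). In NCI-H460 it stood at 170.7 and 173 TPM in controls and at 79.47 and 69.57 TPM with that ASO (-1.20, SE 0.09, limma adjusted p = 0.00112). The groups did not overlap in either line, and the call held without any 1 library. With candidate 240 ASO1 DAP3 gave 0.04 and 0.02, and with the candidate 42 ASOs -0.13 to -0.05, with no call. In NCI-H460 with candidate 42 ASO3, where 46% of all genes tested were called, other such genes were called too. PTCD3 fell from 48.69 and 49.32 TPM in controls to 19.87 and 28.85 TPM. AURKAIP1 rose from 218 and 209.8 TPM to 463.9 and 313.9 TPM, and GADD45GIP1 from 63.9 and 59.81 TPM to 127.7 and 89.03 TPM. Leaving out 1 library gave log2 fold changes of -1.28 to -0.75, 0.55 to 1.12 and 0.52 to 1.04 in the same order.

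Other genes of mitochondrial translation were compared by list. Among 22 mitochondrial aminoacyl-tRNA synthetases, FARS2, which charges the tRNA of phenylalanine, was lower with candidate 42 ASO3, candidate 42 ASO5 and candidate 240 ASO3 in both lines. In A549 its log2 fold changes were -1.34, -1.85 and -1.13 (limma, SE 0.21 each, adjusted p = 0.00092, 0.000341 and 0.00217). In NCI-H460 they were -0.73, -1.16 and -0.76 (SE 0.16 each, adjusted p = 0.0058, 0.0215 and 0.0282), and the last 2 lost their call without any 1 of their libraries. With candidate 240 ASO1 FARS2 gave -0.01 and -0.04. In NCI-H460 with candidate 42 ASO3, 8 of these synthetase genes fell and 2 rose, with a median of -0.20, as over all genes tested.

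In that comparison 13.2% of all genes tested rose and 32.8% fell, the shares to set beside the counts that follow. Of 76 nuclear-encoded subunits of oxidative phosphorylation 24 rose and 1 fell (median 0.30). Of 81 cytosolic ribosomal protein genes 11 rose, near the share of all genes, and 0 fell (0.34). Of 15 mitochondrially encoded rRNAs and mRNAs 8 rose and 0 fell (0.46), led by MT-ATP6 (0.71, adjusted p = 0.00457). Of 16 translation factors 2 rose and 6 fell (-0.21), among them MTIF2, the initiation factor, at -0.90 (limma adjusted p = 0.000499). Of 26 assembly factors 4 rose and 2 fell (-0.02), and of 17 genes of mitochondrial transcription and RNA processing 4 rose and 6 fell (-0.12), including TFAM at -0.93 (adjusted p = 0.0187). Of 9 nuclear regulators 1 rose and 5 fell (-0.37), and GABPA, the ETS factor whose site is named above, gave -1.01 (adjusted p = 0.00213). TFAM kept its call in 2 of 4 fits without 1 library, and MT-ATP6, MTIF2 and GABPA in 4 of 4.

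The downward counts of these lists depended on scaling, a check added after seeing the data. After median-of-ratios scaling, 7 synthetase genes were higher and 5 lower, 4 translation factors higher and 4 lower, and 5 genes of transcription and RNA processing higher and 3 lower. Assembly factors then had 10 higher and 1 lower, and with each library rescaled to the same sum 1 higher and 5 lower. The oxidative phosphorylation, cytosolic ribosomal and mitochondrially encoded lists kept more higher than lower genes under both scalings. Median-of-ratios scaling and rescaling to the same sum gave 50 and 20 oxidative phosphorylation subunits higher (1 and 2 lower). They gave 48 and 16 cytosolic ribosomal protein genes higher and 10 and 8 mitochondrially encoded genes higher, with 0 lower in this pair of lists.

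In A549 with candidate 240 ASO3 the lists other than the members moved mainly in single genes. FASTKD2, an assembly factor of the large subunit, was lower (limma, log2 fold change -1.51, adjusted p = 1.22e-05). In NCI-H460 it gave -0.81 (adjusted p = 0.0104), a call kept in 1 of 4 fits without 1 library. TFB2M, which starts mitochondrial transcription, gave -1.38 (adjusted p = 9.23e-07) in A549. There 3 of 26 assembly factors fell and 0 rose, 2 of 16 translation factors fell and 1 rose, and 3 of 22 synthetases fell and 1 rose. These counts are to be read beside the 6% of all genes that rose and 7.82% that fell in this comparison.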

How the data were processed

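For the 25 RNA-seq libraries the authors deposited 1 signal value for each gene name, a TPM rescaled between libraries (column sums 924350 to 1179224). The submitters' processing notes name kallisto, sleuth 0.30 and genome build hg38. The sources used here do not give the handling of strand, and the depth of each library is unknown. Control columns of NCI-H460 were scaled by the authors together with candidate 240 ASO1 alone, so other NCI-H460 groups may differ from them by a common factor, and values after rescaling are given where they change a direction or a count. The authors also deposited 8 tables, with log2 fold changes and q-values for each gene, per the file headers.

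From the TPM table, log2(TPM + 0.5) of genes averaging 1 TPM or more was fitted with limma 3.58.1 (R 4.3.3; all 5 groups of a line, or all 25 libraries between lines, with 10, 5 and 15 residual degrees of freedom; empirical Bayes with a trend; two-sided; Benjamini-Hochberg over all genes). Simulated data with known changes were run on 14740 genes for A549 and 13774 for NCI-H460, as candidate 42 ASO3 against control. There 2-fold changes were recovered in 65.7% and 71.6% of cases, and 1.5-fold ones in 25.4% and 23.9%. Of the unchanged genes 13 and 10 were called. The simulated noise was independent between libraries and few genes changed, so these shares need not hold for the data.

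In A549, libraries of the same number deviated together (correlations of deviations from the group means over genes 0.17 to 0.41 for candidate 240 ASO1 and control, 0.28 to 0.56 for candidate 240 ASO3 and control, 0.24 to 0.48 for the candidate 240 ASOs and 0.13 to 0.41 for the candidate 42 ASOs), so the fit with that number as a block is given beside these comparisons where it changes a count.

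Gene models are from GENCODE release 29 and promoters from RefSeq. Named were at most 6 called members in each direction per comparison (the 3 largest where 0 were called), 17 members with known roles, the highest and lowest levels, and at most 3 called genes of each other list. Members and lists were chosen with earlier results of these data known. The alternatives tried are other pseudocounts, filters and scalings, the block, fits to the compared groups alone and leaving out each library.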

Additional observations from a re-analysis of the deposited data

Results flagged for a closer look

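With candidate 42 ASO3, 3 members responded differently in the lines by the test of the difference itself (limma, interaction over 25 libraries, adjusted over 14769 genes). MRPS35 was 0.62 higher on the log2 scale in A549 than in NCI-H460 (SE 0.15, adjusted p = 0.0133), from a log2 fold change of 0.45 in A549 and -0.17 in NCI-H460. MRPL42 differed by 0.68 (SE 0.21, adjusted p = 0.0291), from 0.09 and -0.59, and MRPL19 by 0.57 (SE 0.16, adjusted p = 0.0245), from 0.21 and -0.36. In these 3 genes every difference had the sign of the median over all genes tested, 0.15. After median-of-ratios scaling none was called, at 0.36 (adjusted p = 0.138), 0.41 (0.115) and 0.30 (0.155), while MRPL52 (-0.84, adjusted p = 0.0489) and MRPS14 (-0.69, adjusted p = 0.0374) were. Leaving out 1 library gave adjusted p from 0.00937 to 0.0793 for MRPS35, 0.0102 to 0.167 for MRPL42 and 0.00401 to 0.206 for MRPL19.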

How the results depend on the processing

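The cause of the changes below was not tested, except that leaving out a library or other groups leaves fewer libraries. Where no share of all genes stands beside a count, that count does not tell if the members or all genes moved. Without a filter on low values the members called were 12 with candidate 42 ASO3 and 4 for ASO5 minus ASO3 in NCI-H460, 1 for the interaction of candidate 42 ASO3, and in A549 0 with candidate 42 ASO5, 0 with candidate 240 ASO3, 2 for candidate 42 ASO5 minus ASO3 and 1 for candidate 240 ASO3 minus ASO1. Median-of-ratios scaling gave 48 (median 0.463) and 16 in NCI-H460, and 0, 0, 2 and 1 in A549, in the same order. Rescaling to equal sums gave 13 for candidate 42 ASO5 minus ASO3 in NCI-H460, 2 with candidate 42 ASO5 and 4 with candidate 240 ASO3 in A549, and in NCI-H460 medians of -0.052 with candidate 240 ASO1 and 0.011 with candidate 240 ASO3. Fits to the compared groups alone gave 11 and 2 in NCI-H460, and in A549 1 with candidate 42 ASO3, 0 with candidate 42 ASO5, 0 with candidate 240 ASO3 and 0 for candidate 240 ASO3 minus ASO1. The replicate block gave in A549 8 with candidate 42 ASO3 (21.1% of all genes), 6 with candidate 42 ASO5 (10.4% of all genes), 9 with candidate 240 ASO3, 9 for candidate 42 ASO5 minus ASO3 and 13 for candidate 240 ASO3 minus ASO1. Between candidate 42 groups and controls of A549, libraries of the same number had correlations of 0.02 to 0.39. That range overlaps those of the other A549 pairs, so whether a block belongs there is open. The NCI-H460 groups had correlations of -0.02 to 0.19, and the block left every count there within 1.5 times.

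Leaving out 1 library gave counts in A549 of 1 to 2 with candidate 42 ASO3, 0 to 1 with candidate 42 ASO5, 0 to 2 with candidate 240 ASO3, 1 to 2 for candidate 42 ASO5 minus ASO3 and 0 to 3 for candidate 240 ASO3 minus ASO1. In NCI-H460 it gave 7 to 45 with candidate 42 ASO3 and 2 to 30 for ASO5 minus ASO3, and 0 to 8 for the interaction of candidate 42 ASO3 and 24 to 34 between the control groups. The medians ran in A549 from -0.056 to 0.136 with candidate 42 ASO3, 0.023 to 0.182 with candidate 42 ASO5, -0.078 to 0.114 with candidate 240 ASO1 and -0.056 to 0.203 with candidate 240 ASO3. In NCI-H460 they ran from 0.102 to 0.33, 0.146 to 0.279, -0.011 to 0.08 and 0.095 to 0.129. Where 1 library was left in a group, it was assumed to vary like the other groups. Of 1032 values of single genes under the other settings, 126 lost their call, 0 gained one and 0 changed sign. These genes were mostly named because the main fit called them, so gains could hardly appear among them. Other members did gain calls, such as MRPL58 with the block and MRPL52 after median-of-ratios scaling. A floor of 10 TPM, chosen after seeing the data, moved no count by over 1.5 times. TPM values keep no depth, so no counting error can be given.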
